A study of Mus musculus with 4 samples.

Results

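Basement membranes are thin sheets of matrix that surround vessels, nerves and muscle fibres and underlie epithelia, and 10 mouse genes that encode their core proteins were examined for open chromatin. Collagen IV, built from chains of Col4a1 and Col4a2, forms one network, laminins built from one alpha, one beta and one gamma chain form another, and nidogens bind both. Col15a1 and Col18a1 encode collagens of the basement membrane zone whose ends can be released as endostatin-like fragments. In bone these genes are best known from vessel walls and the cells around them.

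Open chromatin had been profiled by ATAC-seq, whose transposase cuts and tags DNA that is not packed away. The knockout group was 2 libraries of Ctsk-iCre;Plagl1fl/fl cells and the control group 2 libraries of Plagl1fl/fl cells without Cre, so both carried the floxed alleles of Plagl1, an imprinted zinc finger transcription factor gene. The Cre was driven by the cathepsin K gene, and since the knockout alone carried it, what the Cre does and what loss of Plagl1 does cannot be told apart. All cells were periosteal stem/progenitor cells taken at the mandibular angle, from animals 8 weeks old. Bone formation had been induced in culture for 3 days by dexamethasone, β-glycerophosphate (5 mM) and ascorbic acid (50 μg/ml). Whether the libraries of a genotype are separate animals is not in the labels, so p-values may measure technical spread alone.

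Peaks belonged to the set if the authors' annotation named one of the 10 genes, or if they lay within 50 kb of a member's start site. The authors' deposited annotation assigned 23 peaks to 9 of the 10 genes and none to Lama2. Start sites of those 9 genes were solved from the peak centres and deposited distances, and 79 consensus peaks lay within 50 kb of them, 12 of which were among the 23. The set therefore held 90 of 85925 consensus peaks. Distances are negative upstream of a start site. Just inside the distance limit lay a Lamc1 peak at 49883 bp (log2 fold -0.16, SE 0.179) and just outside it a peak at -50472 bp from Col4a2 (0.10, SE 0.0768), both in the authors' deposited table. A further 4 annotated peaks lay inside introns of Lama2 and Col4a2 but carry the names of other genes, and are described apart from the 90.

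The deposited tables give 1 log2 fold, 1 mean signal (CPM, the depth-scaled count unit of edgeR, as a mean over all libraries), 1 F statistic, 1 p and 1 false discovery rate (FDR) per peak from edgeR. The annotation assigned no peak to Plagl1, and the deletion was not checked here. Values per library are not analysed here, and the depth of each library is unknown. Positive folds are read as higher in the knockout, because neither the labels nor the headers name the direction; were it the reverse, each gain given here would be a loss. Each standard error (SE) is the one implied by the deposited fold and F, and 95% intervals assume a normal spread. Peaks are called gained or lost at an FDR under 0.05. Peaks were annotated only where p was under 0.05 and the absolute log2 fold at least 0.2, so counts over annotated peaks are counts over peaks already chosen by that p.

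In the authors' deposited table the peak over the start site had a mean of 43.9 CPM for Twist1, 32.6 CPM for Ctsk and 21.7 CPM for Prrx1, mesenchymal or periosteal markers, and 4.73 CPM for Postn, a periosteal marker. It had 4.23 CPM for Kdr and 4.54 CPM for Tek, endothelial markers. The median was 24.1 CPM over 2009 start site peaks of other genes, each fixed by several annotated peaks. The start site peak of Ctsk was gained (log2 fold 0.35, SE 0.0763, edgeR FDR 0.000778) and that of Twist1 lost (-0.30, SE 0.0674, edgeR FDR 0.00128) in the authors' deposited table. Those of Prrx1, Postn, Kdr and Tek did not pass (edgeR FDR 0.760, 0.966, 0.675 and 0.346) in the authors' deposited table. The knockout alone carried the Cre driven by the Ctsk gene, and the part of the Cre in the gained Ctsk peak was not tested. The leukocyte and macrophage markers had 12.4 CPM for Csf1r, 7.21 CPM for Tyrobp, 3.80 CPM for Ptprc and 3.43 CPM for Itgam at their start sites, and promoter peaks of 15.1 CPM for C1qb and 10.9 CPM for Spi1, in the authors' deposited table. Of these start site peaks, that of Csf1r was gained (log2 fold 0.42, SE 0.123, edgeR FDR 0.0234) and those of Tyrobp, Ptprc and Itgam did not pass (edgeR FDR 0.525, 0.627 and 0.332) in the authors' deposited table. The promoter peaks of C1qb (0.55, SE 0.111, edgeR FDR 0.000276) and Spi1 (0.61, SE 0.132, edgeR FDR 0.000708) were gained in the authors' deposited table. A Tyrobp promoter peak at -815 bp was gained as well (0.51, SE 0.114, edgeR FDR 0.00135). Of the 13 annotated peaks of 6 leukocyte and macrophage genes, already chosen by p, 10 were gained and 0 lost, where 17.6% of all annotated peaks were gained and 13.1% lost. The endothelial list had 2 gained and 2 lost of 8 annotated peaks, the pericyte and smooth muscle list 1 gained and 0 lost of 5, the Schwann list 0 called of 3, and the periosteal progenitor list 2 gained and 3 lost of 15. The called endothelial peaks were at Pecam1 and Kdr in the authors' deposited table. Pecam1 had a gained peak (25.8 CPM, log2 fold 0.28, SE 0.0856, edgeR FDR 0.0285) and a lost one (17.8 CPM, -0.34, SE 0.105, edgeR FDR 0.0296). Kdr had a lost peak (4.94 CPM, -0.96, SE 0.209, edgeR FDR 0.00092) and a gained one (2.70 CPM, 0.90, SE 0.276, edgeR FDR 0.0293). The gain of the pericyte list was a promoter peak of Abcc9 (1.53 CPM, log2 fold 1.32, SE 0.397, edgeR FDR 0.0256) in the authors' deposited table. A Notch3 promoter peak of that list (3.54 CPM, -0.74, SE 0.247) did not pass (edgeR FDR 0.0512). Nor did the start site peaks of Cspg4 (7.77 CPM, pericyte list) and S100b (5.46 CPM, Schwann list), with edgeR FDR 0.305 and 0.485 in the authors' deposited table. In cultured bulk cells a change in the share of a cell type and a change in accessibility per cell cannot be told apart, and the part of other cell types in the results given here was not tested.

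Col4a1 and Col4a2 lie head to head, and their solved start sites on chromosome 8 (mm39), 11362826 on the minus strand and 11362805 on the plus strand, are 21 bp apart. Their promoter stretches, from RefSeq (GRCm38.p6, chr8:11312777-11313076 minus strand for Col4a1, chr8:11312555-11312854 plus strand for Col4a2, coordinates not comparable with mm39), are shown because this arrangement decides which gene names each peak carries. Each runs from 250 bases before to 50 bases after the start site, 5′ to 3′ on the gene's own strand, and capitals mark the 78 bases that both stretches hold, in opposite orientation.
Col4a1: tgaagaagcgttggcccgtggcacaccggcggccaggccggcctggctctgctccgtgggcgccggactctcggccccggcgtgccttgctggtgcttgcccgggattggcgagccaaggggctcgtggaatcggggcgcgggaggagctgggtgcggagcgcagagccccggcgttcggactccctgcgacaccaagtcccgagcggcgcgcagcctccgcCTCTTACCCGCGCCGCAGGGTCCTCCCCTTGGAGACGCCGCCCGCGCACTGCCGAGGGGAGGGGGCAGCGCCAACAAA
Col4a2: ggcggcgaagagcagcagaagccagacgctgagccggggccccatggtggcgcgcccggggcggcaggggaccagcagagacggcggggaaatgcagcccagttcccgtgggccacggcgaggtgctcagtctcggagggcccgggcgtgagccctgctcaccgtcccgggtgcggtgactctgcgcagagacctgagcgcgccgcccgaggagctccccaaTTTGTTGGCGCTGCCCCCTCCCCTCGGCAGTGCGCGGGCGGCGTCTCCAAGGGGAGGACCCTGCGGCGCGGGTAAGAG
The Col15a1 stretch (GRCm38.p6, chr4:47207762-47208061, plus strand) is given for contrast, with CpG dinucleotides in capitals.
Col15a1: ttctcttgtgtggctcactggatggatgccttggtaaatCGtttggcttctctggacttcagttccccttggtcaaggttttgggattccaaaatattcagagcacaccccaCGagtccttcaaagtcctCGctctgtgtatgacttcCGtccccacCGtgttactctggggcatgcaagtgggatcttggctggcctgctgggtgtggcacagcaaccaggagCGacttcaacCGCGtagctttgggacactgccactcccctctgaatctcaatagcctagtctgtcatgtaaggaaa
There were 37 CpG dinucleotides in the Col4a1 stretch, 33 in that of Col4a2 and 8 in that of Col15a1, against a median of 7 over the 32851 promoter stretches of the RefSeq table. RefSeq stretches were found for 7 of the 10 members, 8 in all with 2 for Col18a1. On either strand, GGGCGG, the GC box read by SP and KLF factors, occurred once in the Col4a1 stretch, 3 times in that of Col4a2 and not in that of Col15a1, and 35.7% of all stretches hold it. CCAAT occurred once in each collagen IV stretch and in 37.4% of all. The AP-1 motif TGANTCA was in 0 of the 8 stretches and in 7.81% of all. CCACCC was in none of these 3 stretches and in 31.5% of all, and GGGGCC was found once for Col4a1, 2 times for Col4a2 and not for Col15a1, and in 8204 of the 32851 stretches. Matches may overlap, those in the shared bases count for both collagen IV genes, and all are a description of the letters in these windows.

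No start site peak of a member passed the FDR, so the 9 genes showed no called change at their solved start site. There were 8 such peaks, since Col4a1 and Col4a2 share 1, and 0 were gained or lost, where 5.62% of all consensus peaks passed (3.14% gained, 2.48% lost). At an unadjusted p under 0.05 there was 1. Signal per kb of peak width differed widely among them in the authors' deposited table. Lamc1, the gamma chain found in most laminins, had the highest at 39.5 CPM per kb, followed by Nid2 (nidogen-2) at 36.8 CPM per kb. Next came Col18a1, at the start of the transcript the annotation names, with 19.5 CPM per kb, Nid1 (nidogen-1) with 17.0, the shared collagen IV peak with 13.7, Col15a1 with 7.88, Lama4 with 6.75 and Lamb1 with 5.41 CPM per kb. The signal of the whole peak in the authors' deposited table was 74.9 CPM for Lamc1, 41.7 CPM for Nid2 and 23.8 CPM for the collagen IV pair. It was 12.6 CPM for Col18a1, 9.80 CPM for Lama4, 7.08 CPM for Lamb1, 7.06 CPM for Col15a1 and 3.56 CPM for Nid1. Mean signal over both genotypes carries no error of its own in the table, so neighbours in this order were not compared by a test. Only 1 start site was solved per gene, so any other promoter, as RefSeq gives for Col18a1, was not examined.

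The Lamc1 start site peak (chromosome 1, 153207881 to 153209773) differed by -0.12 on the log2 scale (SE 0.0517, p 0.0247, edgeR FDR 0.171), or 0.923-fold with an interval of 0.860 to 0.990, in the authors' deposited table. It had the smallest SE of the 8, and the 1 unadjusted p under 0.05. Nid2 had -0.12 (SE 0.0684, edgeR FDR 0.327) at its start site and the shared collagen IV peak -0.08 (SE 0.0901, edgeR FDR 0.685, interval 0.838 to 1.07-fold) in the authors' deposited table. Of the weaker peaks, Col18a1 had -0.0022 (SE 0.123), Lamb1 -0.0042 (SE 0.165), Col15a1 -0.07 (SE 0.166), Nid1 -0.18 (SE 0.238) and Lama4, the 1 fold above 0, 0.13 (SE 0.139) in the authors' deposited table. A start site peak that did not pass may still have changed. Each interval gives the folds that the estimate leaves possible and is no limit of detection. At Nid1, where the SE was largest, the interval ran from 0.637 to 1.22-fold. The median log2 fold of the 8 was -0.07, beside -0.06 over the 2009 start site peaks of other genes, of which 72 were gained and 139 lost (10.5%). A start site could be solved only for genes with an annotated peak, so members and other genes were selected by a p under 0.05 somewhere near them. The selection was not the same for both. The 2009 were limited to start sites fixed by several annotated peaks, while Col18a1, Lama4, Lamb1 and Nid1 had 1 annotated peak each.

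**Figure D1:**
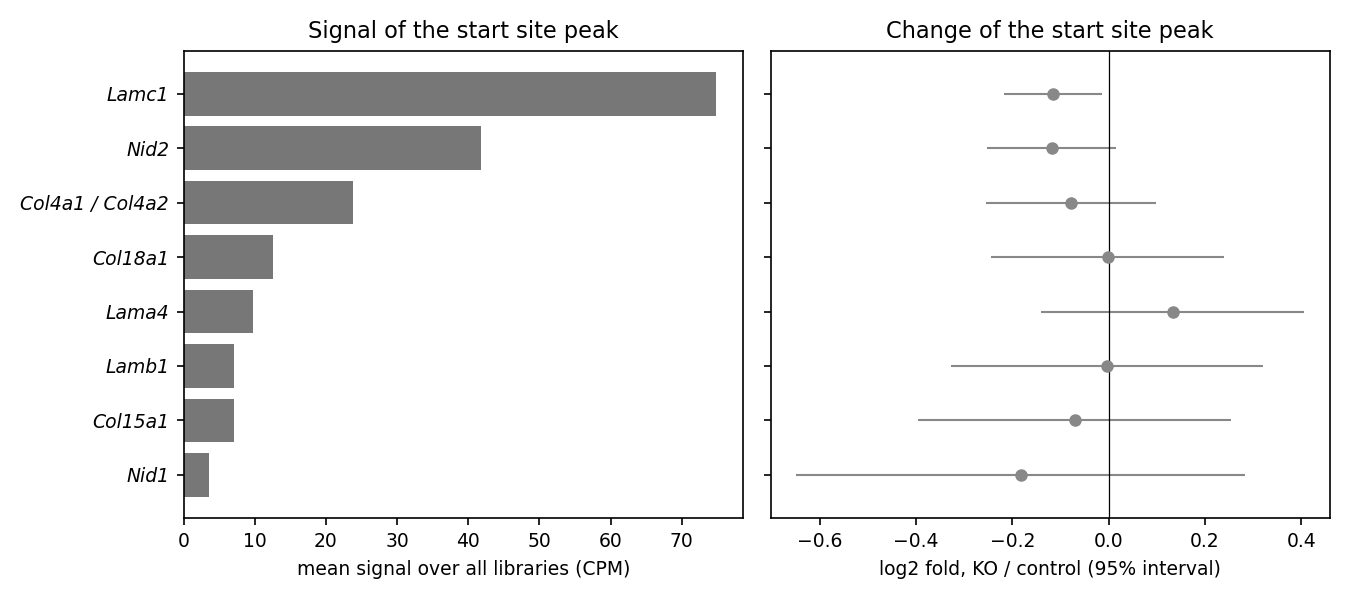
Left, mean signal of the peak over each start site in CPM, as bars, with Lamc1 at 74.9 CPM and Nid1 at 3.56 CPM as the extremes. Right, its log2 fold of knockout over control with the 95% interval implied by the deposited statistics; no point passed the FDR, and intervals widen as signal falls.

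Within 50 kb of the start sites, 3 of 79 peaks were called (3.80%), 1 gained and 2 lost. The share over all consensus peaks is 5.62%, and it is 7.61% (4.73% gained, 2.89% lost) over the 40102 peaks within 50 kb of any gene's start site solved in the same way, so the members' share did not exceed either background. The median log2 fold of the 79 was -0.0017, beside 0.0024 over all consensus peaks, with 38 folds above 0 and 41 below. An unadjusted p under 0.05 was found at 14 of them (17.7%, against 19.8% of all peaks). The called peaks lay at 2 loci, the collagen IV pair and Nid2. Around Lama4 (8 peaks), Lamb1 (12), Lamc1 (10), Col15a1 (9), Col18a1 (10) and Nid1 (7), 0 passed the edgeR FDR; unadjusted p was under 0.05 at 4 Lamc1 peaks, 2 of Nid1 and 1 each of Lamb1 and Col18a1, and at 0 of Lama4 and Col15a1.

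The strongest peak away from the start site within 50 kb was called at Nid2 alone, where it is the lost intron 8 peak described further on. At the other loci it had a small fold and did not pass; these peaks were picked by signal after the values were seen. The one at Lama4 (28979 bp, 41.3 CPM) had a log2 fold of -0.07 (SE 0.0688, interval 0.868 to 1.05-fold) in the authors' deposited table. On the 2 sides of the collagen IV pair it differed in the authors' deposited table by -0.05 (SE 0.0748, 34.7 CPM) on the Col4a1 side and by -0.10 (SE 0.0778, 32.0 CPM) on the Col4a2 side. At Lamb1 (-46199 bp, 28.0 CPM) the authors' deposited table gives -0.09 (SE 0.0830), at Lamc1 (32225 bp, 24.2 CPM) 0.07 (SE 0.0890) and at Col18a1 (15885 bp, 20.0 CPM) 0.07 (SE 0.0974). Nid1 (-44102 bp, 9.55 CPM) and Col15a1 (43243 bp, 5.85 CPM) had weaker ones with wider errors, 0.19 (SE 0.141) for Nid1 and 0.07 for Col15a1 (SE 0.181), by the authors' deposited table. Among these strongest peaks there was 1 called loss, at Nid2, and no called gain. Of all consensus peaks, 2.48% were lost and 3.14% gained.

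**Figure D2:**
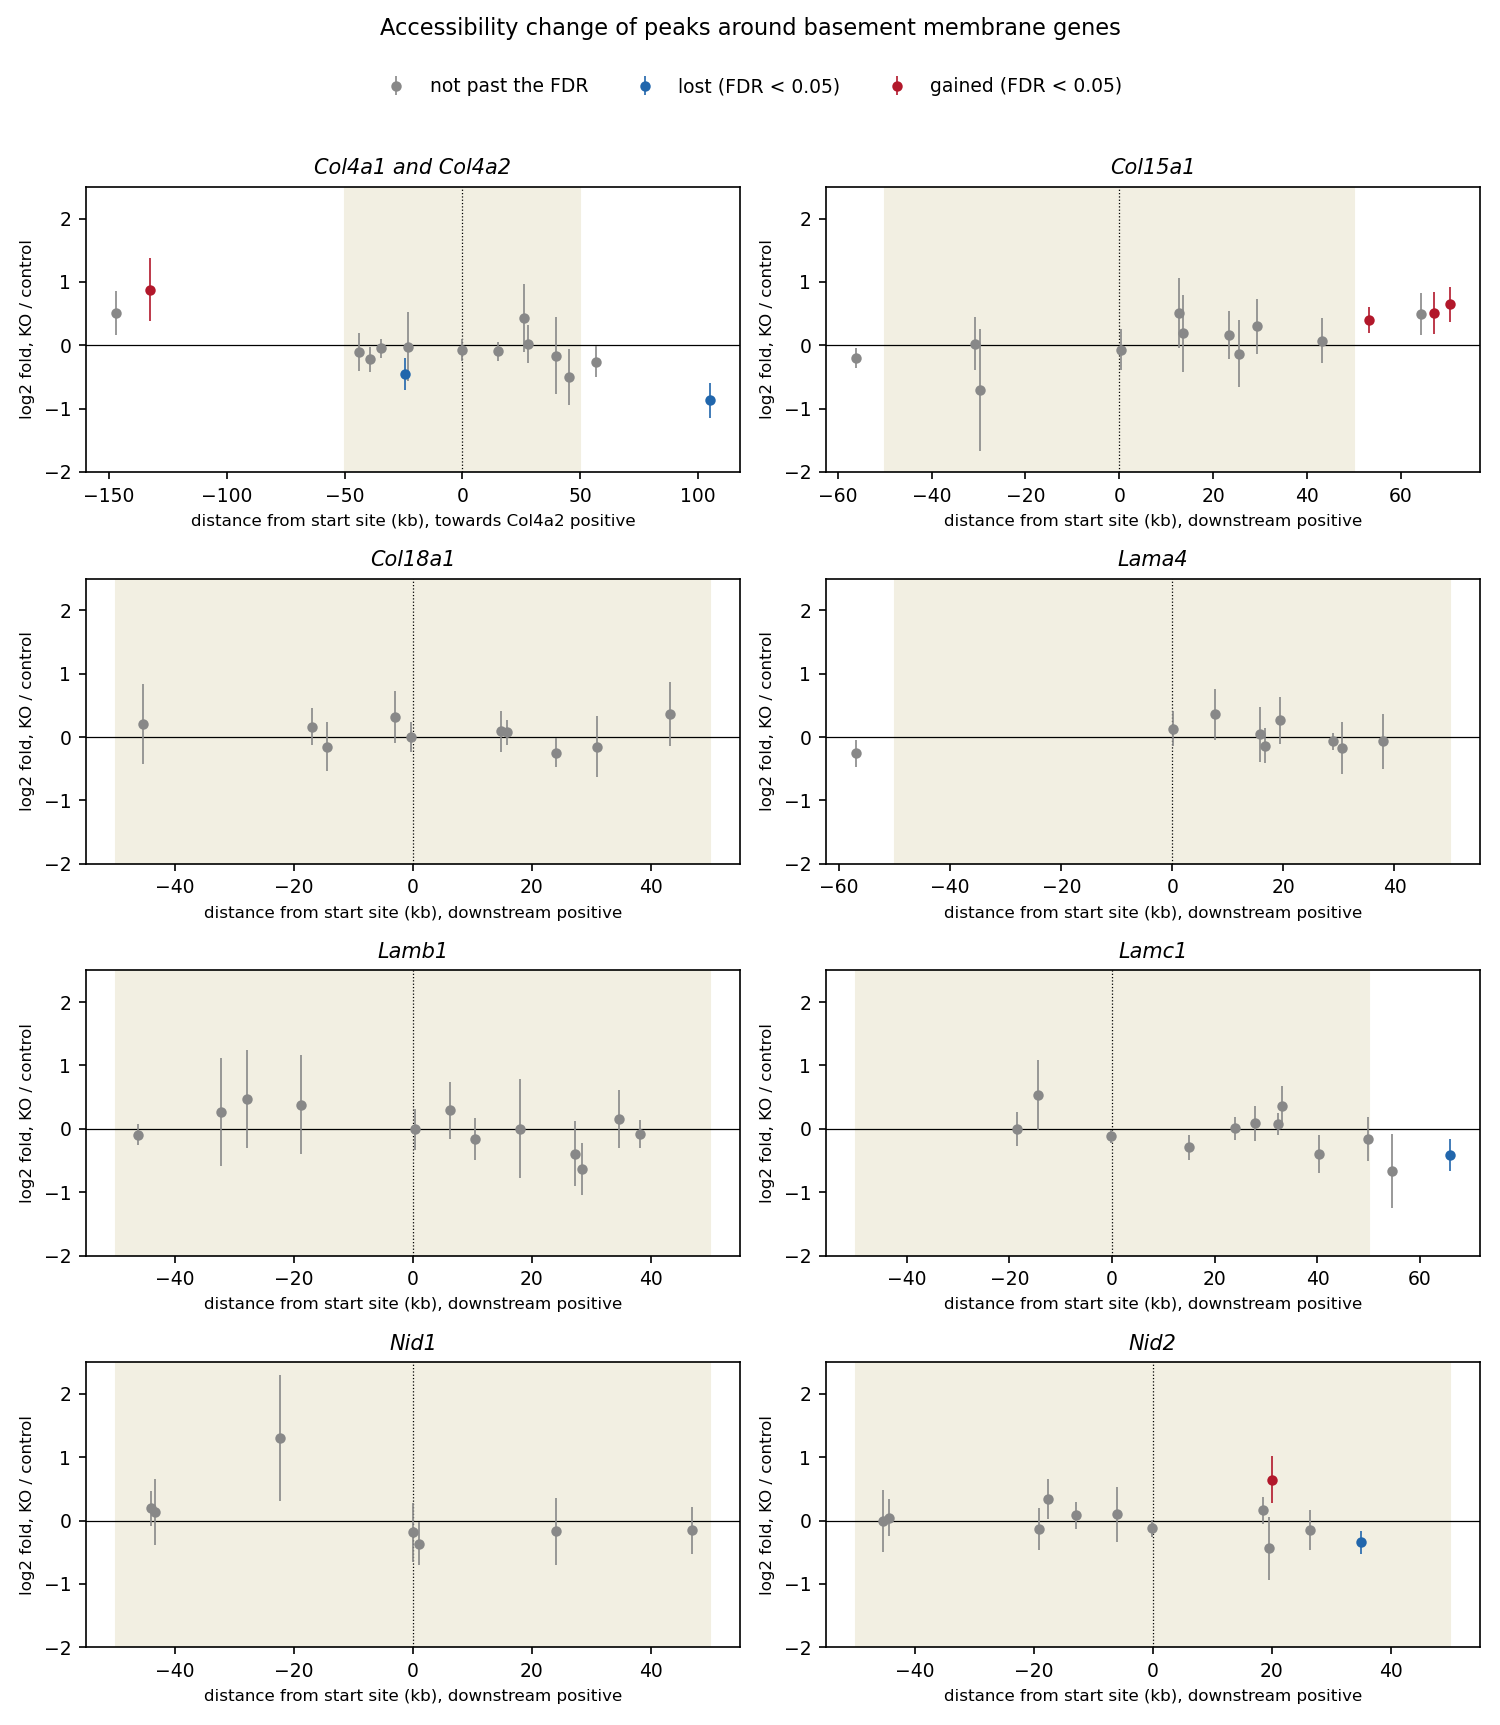
Log2 fold of knockout over control (points, with 95% intervals as bars) against distance in kb from the start site, for the peaks within 50 kb (shaded) and annotated peaks beyond, per locus. Called peaks lie at the collagen IV pair, Col15a1, Lamc1 and Nid2; the 3 gained Col15a1 peaks lie just outside the shaded range, at 53216 to 70520 bp.

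Of the 23 peaks assigned to members, 5 were gained and 3 lost (34.8%), where 30.6% of all 15221 annotated peaks passed (17.6% gained, 13.1% lost). The share is near the background and is no result about the members. What the peaks show is their arrangement at each gene, given next by role.

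At the collagen IV pair, annotated peaks inside the 2 genes had folds below 0 and annotated peaks beyond the end of Col4a1 had folds above 0. These peaks were chosen by p. Of all 11 consensus peaks within 50 kb of the pair, 2 had folds above 0 and 9 below. The 2 lay on the Col4a2 side, with 0.43 (SE 0.276) at 11389005 to 11389269 and 0.02 (SE 0.156) at 11390371 to 11390681 in the authors' deposited table. Inside Col4a1, a peak in intron 1 of 52 (chromosome 8, 11338296 to 11338695, at -24310 bp from the Col4a2 start site, 11.6 CPM) was lost with a log2 fold of -0.45 (SE 0.131, edgeR FDR 0.0193), or 0.730-fold, in the authors' deposited table. A stronger peak in the same intron (11323377 to 11323965, 18.7 CPM) did not pass and had -0.22 (SE 0.102, edgeR FDR 0.191) in the authors' deposited table. Both carry the name Col4a2, because that start site is nearer by the 21 bp between the genes. In turn, both peaks named Col4a1 lie in intron 4 of 47 of Col4a2, with -0.51 (SE 0.226, edgeR FDR 0.174) at 11407874 to 11408341 and -0.26 (SE 0.125, edgeR FDR 0.209) at 11419248 to 11419838 in the authors' deposited table. Gene names in the annotation are thus swapped between the chains for all 4 of these intronic peaks.

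The annotated peak with the smallest FDR inside any member carries neither name. It lies in intron 20 of 47 of Col4a2 (chromosome 8, 11467785 to 11468176, -105154 bp from the start site of Col4a1, 10.9 CPM) and is assigned to E230013L22Rik. It was lost with a log2 fold of -0.87 (SE 0.140, edgeR FDR 1.26e-06), or 0.547-fold with an interval of 0.452 to 0.661, in the authors' deposited table, and ranks 9 by p among 2134 lost peaks. Its neighbours did not pass: the one 1623 bp away had -0.16 (SE 0.147, edgeR FDR 0.582) and the one 5288 bp away on the other side 0.40 (SE 0.226, edgeR FDR 0.320) in the authors' deposited table. The intron 1 peak was likewise flanked by peaks short of the FDR, with -0.02 (SE 0.279) at 1024 bp and -0.05 (SE 0.0748) at 10302 bp in the authors' deposited table. Far upstream of Col4a2, on the side of Col4a1, a weak intergenic peak was gained (11229977 to 11230386, -132624 bp away, 3.13 CPM) with a log2 fold of 0.87 (SE 0.253, edgeR FDR 0.0196) in the authors' deposited table. A second one in an LTR element of the ERVL class (11215382 to 11215861) had 0.51 (SE 0.178, edgeR FDR 0.0656) in the authors' deposited table. Their distance makes their link to the collagen IV genes one of nearest start site only. The peaks flanking the gained one did not pass, with 0.03 (SE 0.142) at 6421 bp and -0.04 (SE 0.164) at 7866 bp in the authors' deposited table.

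Col15a1 had 3 gained and 0 lost peaks, in introns 9 and 14 of the gene. Its intron 9 of 39 held a gained peak (chromosome 4, 47260976 to 47261480, 17.2 CPM) with a log2 fold of 0.39 (SE 0.104, edgeR FDR 0.00901) in the authors' deposited table. Intron 14 held 3 annotated peaks over 47272056 to 47278759. The last of them (47278305 to 47278759, 9.51 CPM, at 70520 bp) was gained with 0.65 (SE 0.141, edgeR FDR 0.00092), or 1.56-fold, in the authors' deposited table. The middle one (47275049 to 47275344, 6.78 CPM) was gained with 0.51 (SE 0.167, edgeR FDR 0.0465) and the first (47272056 to 47272486, 6.48 CPM) had 0.49 (SE 0.171, edgeR FDR 0.0638) in the authors' deposited table. The 3 are neighbours in the consensus, with no other peak between them. The peaks to either side of intron 14's group had folds below 0 that did not pass: -0.03 (SE 0.219) at 47269597 to 47269833 and -0.12 (SE 0.154) at 47284868 to 47285638 in the authors' deposited table. Counted without regard to p, 8 consensus peaks lay 50 to 100 kb downstream of the start site, with 5 folds above 0. Of these 8, 3 were gained and 0 lost, where 3.14% of all consensus peaks were gained and 2.48% lost. That range was counted after the called peaks in it were seen, so 3 of 8 is not an unbiased share. Within 50 kb of the Col15a1 start site, 0 of 9 peaks passed. With the trend of folds along signal taken out, the middle intron 14 peak kept a log2 fold of 0.49, close to its 0.51, and no longer passed (adjusted p 0.0602). An intergenic peak at -56220 bp (29.5 CPM) had -0.21 (SE 0.0814, edgeR FDR 0.112) in the authors' deposited table.

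Col18a1, the other collagen of this kind, had 1 annotated peak, in intron 3 of 41 (chromosome 10, 76925117 to 76925821, 14.2 CPM), where the authors' deposited table gives a log2 fold of -0.25 (SE 0.117, edgeR FDR 0.202). The folds of its 10 peaks within 50 kb ran from -0.25 to 0.36, and their median was 0.08. Col15a1 and Col18a1 were not compared by a test.

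Among the laminin chains, called peaks were lost in Lamc1 and Lama2. Lamc1 had 5 annotated peaks, all in intron 1 of 27, of which 4 had folds below 0 and 1 was lost. The lost one spanned 153142369 to 153143038 on chromosome 1, 65829 bp into the gene. With 12.0 CPM, its log2 fold was -0.42 (SE 0.129, edgeR FDR 0.0318), or 0.750-fold, in the authors' deposited table. The others with folds below 0 were 14964 bp (19.6 CPM, -0.29, SE 0.0999, edgeR FDR 0.0589), 40354 bp (-0.40, SE 0.153, edgeR FDR 0.0933) and 54503 bp (-0.66, SE 0.298, edgeR FDR 0.176) from the start site in the authors' deposited table. The peak at 33165 bp had 0.36 (SE 0.165, edgeR FDR 0.190), while 3 stronger or similar peaks between 24019 and 32225 bp had folds of 0.0056, 0.08 and 0.07 in the authors' deposited table, with SEs of 0.0911, 0.138 and 0.0890. Folds of both signs therefore lay within 1 intron. Between 50 and 100 kb from the start sites, folds of 1 sign alone were found at the 5 consensus peaks downstream of Lamc1 (median -0.32), the 4 upstream of Lamb1 (-0.34) and the 3 upstream of Lama4 (-0.26), all below 0, and on 2 sides that held 1 peak each. The other sides with peaks had folds of both signs.

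Lamb1, the beta chain that pairs with Lamc1 in many laminins, had 1 annotated peak, in intron 12 of 32 on an LTR element of the MaLR class (chromosome 12, 31343512 to 31343917, 4.64 CPM). Its log2 fold of -0.63 (SE 0.211, edgeR FDR 0.0510) fell just short of the FDR in the authors' deposited table. It passed with that trend taken out (-0.67, adjusted p 0.0377). Lama4, the alpha chain of vessel walls, had 1 annotated peak, intergenic and at -57056 bp, with -0.26 (SE 0.110, edgeR FDR 0.153) in the authors' deposited table. The folds of the 8 Lama4 peaks within 50 kb ran from -0.17 to 0.36.

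Lama2, the alpha chain of muscle and nerve laminins, had no peak under its own name, so its start site could not be solved and the distance rule finds no peak for it. Its introns nevertheless held 3 annotated peaks named for other genes. The peak in intron 12 of 63 (chromosome 10, 27198450 to 27199291, 7.94 CPM), named 4930579H20Rik, was lost with a log2 fold of -0.59 (SE 0.161, edgeR FDR 0.0126), or 0.666-fold, in the authors' deposited table. Intron 41 held a lost peak named Arhgap18 (26939472 to 26940206, 19.7 CPM) with -0.37 (SE 0.100, edgeR FDR 0.0121), and intron 37 a peak (26993654 to 26994187, 8.60 CPM) with 0.36 (SE 0.148, edgeR FDR 0.136), in the authors' deposited table. The nearest consensus peak to the intron 12 peak was 55594 bp away, and the one nearest to the intron 41 peak, at 6189 bp, had -0.33 (SE 0.328) in the authors' deposited table.

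**Figure D3:**
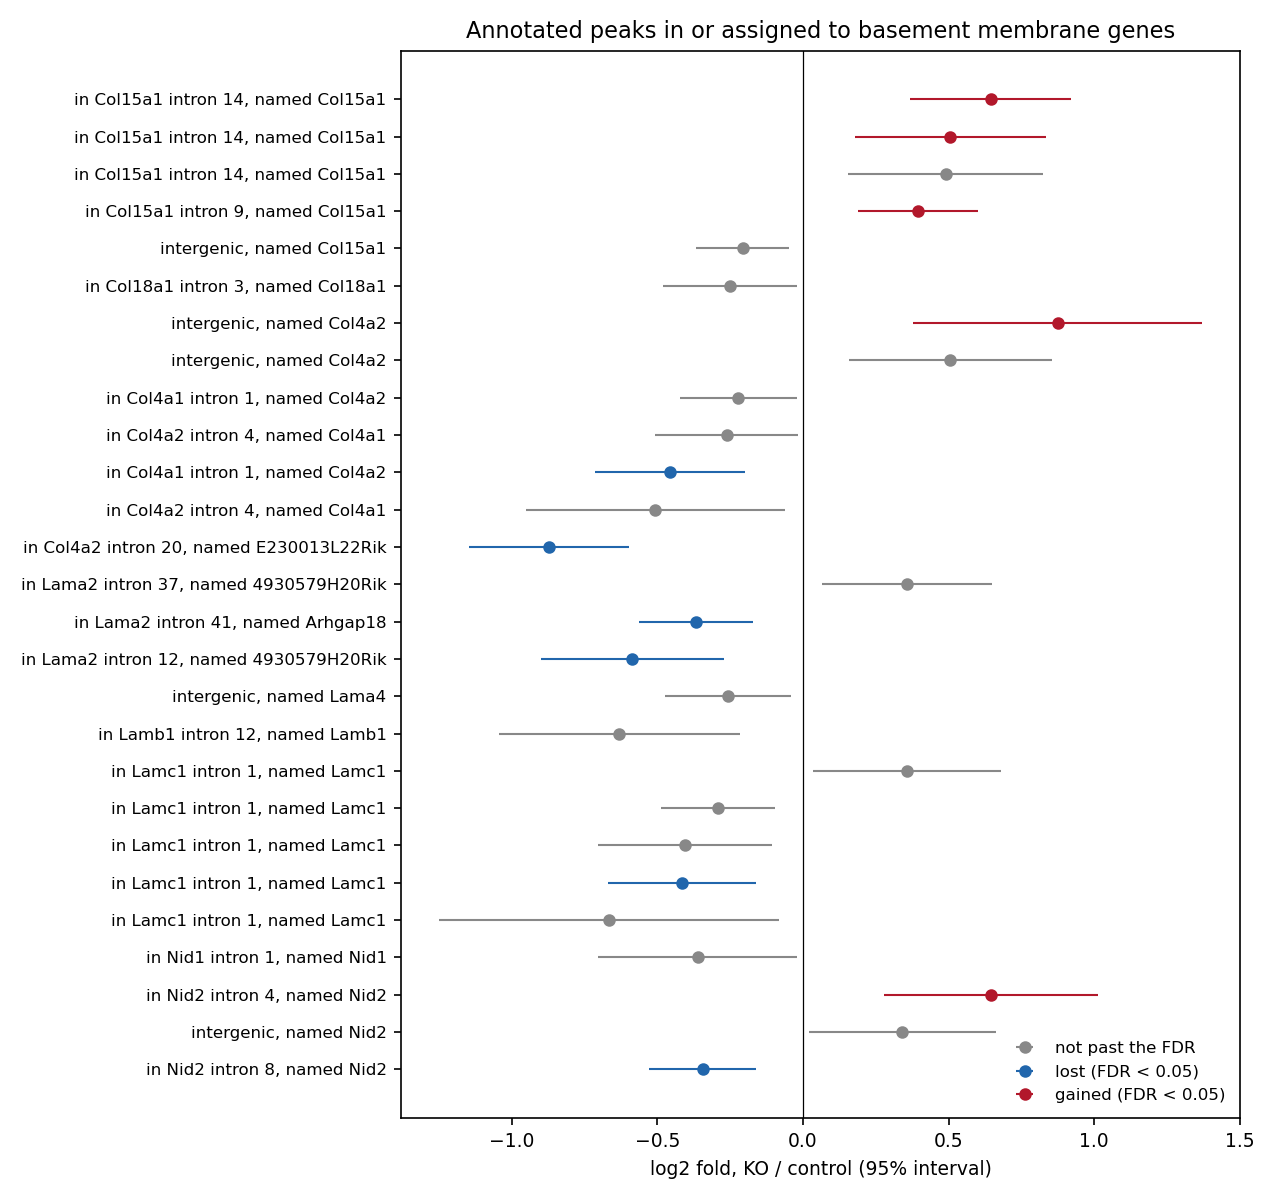
Log2 fold of knockout over control with 95% intervals for the 23 annotated peaks assigned to members and the 4 inside Lama2 and Col4a2 named for other genes; the label gives the intron that holds the peak and the gene name in the deposited annotation. The annotated peaks within Col4a1 and Col4a2, chosen by p, all lie left of 0, down to -0.87. The 4 annotated intronic Col15a1 peaks lie right of 0, from 0.39 to 0.65.

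The nidogens, which link laminin to collagen IV, differed in their calls, with 2 called peaks at Nid2 and 0 at Nid1; the difference between the genes was not tested. Nid2 had a gained and a lost peak in introns of the same gene. The gained one, in intron 4 of 20 (chromosome 14, 19821342 to 19821584, 5.40 CPM), differed by 0.65 on the log2 scale (SE 0.187, edgeR FDR 0.0197), or 1.56-fold, in the authors' deposited table. The lost one, in intron 8 (19835944 to 19836872, 22.2 CPM), had -0.34 (SE 0.0943, edgeR FDR 0.0124, interval 0.693 to 0.895-fold) in the authors' deposited table. A peak 523 bp from the gained one, centre to centre, had the opposite sign without passing (-0.43, SE 0.253, edgeR FDR 0.336) in the authors' deposited table. The remaining annotated Nid2 peak, at -17610 bp, had 0.34 (SE 0.163, edgeR FDR 0.213) in the authors' deposited table. At Nid1 the annotated peak lay 1050 bp from the start site in intron 1 of 19 (chromosome 13, 13612859 to 13613615, 6.61 CPM), with -0.36 (SE 0.174, edgeR FDR 0.216) in the authors' deposited table. The largest log2 fold within 50 kb of any member was 1.31 (2.47-fold, SE 0.509 on the log2 scale, edgeR FDR 0.106) at a peak of 1.04 CPM named Gpr137b, -22383 bp from Nid1, in the authors' deposited table, and its interval ran from 1.24 to 4.94-fold.

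Across all peaks, folds leaned upward at weak peaks and downward at strong ones, and the members followed the same range. In the weakest of 20 signal bins of the authors' deposited table, the median stood at 0.11 on the log2 scale, and in the strongest at -0.05. With the trend taken out, the median of the 79 peaks within 50 kb was -0.0086. The gained member peaks had 3.13 to 17.2 CPM and the lost ones 11.6 to 22.2 CPM. An assumed coefficient of variation of 0.05 between libraries of 1 genotype, added to the SE, left 1 of the 8 called peaks of the set, the last Col15a1 intron 14 peak (adjusted p 0.0106). With 0.1 none of the 8 passed, whereas the Col4a2 intron 20 peak did (adjusted p 0.0350) as 1 of 7 lost peaks among all 85925.

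**Figure D4:**
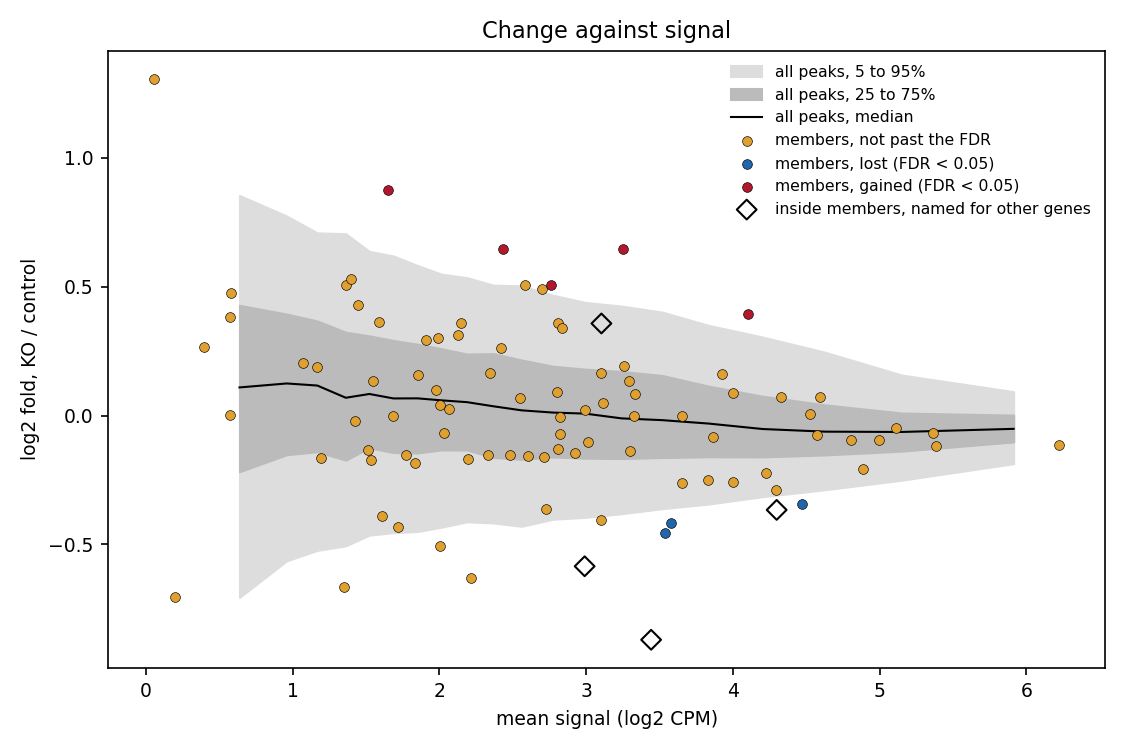
Log2 fold of knockout over control against mean signal in log2 CPM; bands give the spread of all 85925 peaks in 20 signal bins, points the 90 peaks of the set and diamonds the 4 peaks inside members named for other genes. Most points lie inside the bands, and the Col4a2 intron 20 peak at -0.87 lies below them.

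Of 33 other structural, linking and modifying genes of the basement membrane, 18 had an annotated peak, and 3 of these had a gained and 3 a lost peak at the edgeR FDR. Of their 34 annotated peaks, 4 were gained and 3 lost (20.6%), below the 30.6% over all annotated peaks. Serpinh1, the collagen chaperone, had a lost peak at -7203 bp (62.6 CPM) with a log2 fold of -0.28 (SE 0.0568, edgeR FDR 0.00022) in the authors' deposited table. Smoc1, a matrix glycoprotein gene, had -0.27 (SE 0.0771, edgeR FDR 0.0176) in intron 1 of 12, and Hmcn1, the hemicentin-1 gene, had a gained peak of 0.56 (SE 0.153, edgeR FDR 0.0112) in the authors' deposited table, in intron 15 of 106. The other called genes were the collagen lysyl hydroxylase gene Plod1 (gained, 0.43, SE 0.128, edgeR FDR 0.0250), the matrix protein gene Frem1 (gained, 0.75, SE 0.237, edgeR FDR 0.0355) and the perlecan gene Hspg2 (lost, -0.25, SE 0.0801, edgeR FDR 0.0409), by the authors' deposited table. Of 11 receptor genes, 5 had an annotated peak, 2 had a gained and 3 a lost one, with Itga3, an integrin alpha chain gene, in both counts. Of their 13 annotated peaks, 2 were gained and 5 lost (53.8%, against 30.6% of all annotated peaks), and 3 of the lost ones belong to Ddr2 alone. Ddr2, a collagen receptor kinase gene, had 3 lost peaks in intron 1 of 16, the most significant with -0.39 (SE 0.0789, edgeR FDR 0.000256), and the promoter peak of its relative Ddr1 was lost with -0.21 (SE 0.0580, edgeR FDR 0.0115), in the authors' deposited table. Itgb1, the integrin beta-1 gene, had a gained peak at -31113 bp with 0.26 (SE 0.0710, edgeR FDR 0.0106) in the authors' deposited table.

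Fibrillar and interstitial collagens were counted in the same way for comparison. Beside the 3 of 79 peaks called near basement membrane genes, 2 of 81 were called within 50 kb of the collagen start sites that could be solved (2.47%, 0 gained and 2 lost), and 5.62% of all consensus peaks. The median log2 fold of these 81 was -0.05. The 23 annotated peaks of the basement membrane genes had 9 folds above 0 and 14 below, with a median of -0.25. The 24 of the fibrillar and interstitial collagens had 4 above and 20 below, with a median of -0.27, and 1 was gained and 4 lost (20.8%, against 30.6% of all annotated peaks). Annotated peaks were chosen by p and by an absolute log2 fold of at least 0.2. No fold among them lies near 0, and each median follows the more common sign. Without that choice, the 79 peaks near basement membrane genes had 38 folds above 0 and 41 below (median -0.0017). The 81 near fibrillar and interstitial collagens had 36 above and 45 below. No test of the difference between these 2 groups of genes was made.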

How the data were processed

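ATAC-seq libraries of 2 knockout and 2 control samples were compared by the authors. Per the submitters' processing notes, the tools included DiffBind 3.16.0, HOMER, Bowtie2 2.5.4 and Trim Galore 0.6.10, with SAMtools 1.21, GATK 4.5.5.0 and deepTools 3.5.5, and the build was mm39. Which peak caller, read shift and scaling were used is not given in the sources used here. Log2 folds, mean log2 CPM, F scores, p-values and FDRs of the edgeR comparison are the authors', per the file headers, as are the distances in the deposited annotation. The 15221 annotated peaks are those whose p was under 0.05 and whose log2 fold was 0.2 or more in size, tested on the values. Columns of unassigned libraries numbered 0.

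Dividing the size of the log2 fold by the root of F gave the SE. Start sites were solved from peak centre and distance. Where several peaks of 1 transcript did not fix the strand (Col18a1, Lama4, Lamb1 and Nid1), the candidate covered by a consensus peak was taken. This choice was checked on transcripts whose strand several annotated peaks did fix and where 1 candidate alone was covered. It was right for 1821 of 1864 of them (97.7%). The members named had 1 annotated peak each and were outside that check. Host genes of introns came from RefSeq transcript names (assembly GRCm38.p6, names only; 9122 of 9128 matched). Alternatives used p-values from a chi-square on the fold over its SE, with Benjamini-Hochberg adjustment over all peaks. Procedures were tested on simulated data. The trend was a running median over 2000 peaks.

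Members, gene lists and alternatives were chosen with earlier results of these data known; counts 50 to 100 kb away, neighbouring peaks and peaks named for other genes were added after their values were seen. The text names, for each member, the peak at its start site, called and annotated peaks, and up to 3 genes per other list by FDR. Further genes of those lists (Plod1, Frem1, Hspg2, Itga3) and the marker genes given by name were named after their values were seen. Tools were scipy 1.17.1, pandas 2.3.3, numpy 2.4.6 and matplotlib 3.10.9 under Python 3.11.15.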

Additional observations from a re-analysis of the deposited data

How the results depend on the processing

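Within 50 kb of the start sites 2 lost and 1 gained peaks were called, and among the annotated peaks of members 3 lost and 5 gained. Over all 85925 consensus peaks the counts were 2134 lost and 2699 gained. At an FDR under 0.01 the member counts became 0 and 0, and 0 and 2. All peaks then gave 666 lost and 1002 gained. At an FDR under 0.1 lost peaks became 5 within 50 kb and 6 among annotated peaks, and gained peaks 1 and 7. All peaks then gave 3625 lost and 4339 gained. With a log2 fold of 0.5 or more in size required, lost peaks were 0 in both, and gained peaks 1 and 4. All peaks gave 593 lost and 1639 gained. With a coefficient of variation of 0.05 added, the member counts were 0 and 0, and 0 and 1, and with 0.1 all 4 were 0. All peaks gave 409 lost and 932 gained with 0.05, and 7 lost and 48 gained with 0.1. Leaving out peaks under the median signal took the gained peaks within 50 kb to 0 and left 5 among annotated peaks, with 3 and 4 lost. Of all peaks kept by that setting, 2517 were lost and 2251 gained. Within 10 kb there were 0 lost and 0 gained of 13 peaks, and within 100 kb 4 lost and 5 gained of 152. The share called over all consensus peaks is 5.62%, whatever the distance. With the trend of folds along signal taken out, each of the 4 member counts changed by 1 at most. All peaks then gave 1328 lost and 2727 gained. No fold of the 11 called peaks changed sign with that trend taken out, and added variation leaves folds as they are. Of these 11, 1 no longer passed with the trend taken out, 9 with the variation of 0.05 and 10 with 0.1. No paired analysis was possible because the tables hold no value per library; for the same reason leaving out each library was not run. Depth per library is unknown, and the implied SE sets what could be detected.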

Other observations

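Called peaks between 50 and 100 kb of a member's start site that were named for other genes numbered 2. A peak named Lyst, a gene of lysosomal trafficking, lay 86525 bp downstream of the Nid1 start site (chromosome 13, 13698366 to 13699059, mm39) and was gained with a log2 fold of 0.80 (SE 0.165, edgeR FDR 0.000375) in the authors' deposited table. A peak in exon 4 of 4 of the non-coding gene 6030469F06Rik lay at -80380 bp from the Lamb1 start site (chromosome 12, 31234461 to 31235364) and was lost with -0.46 (SE 0.105, edgeR FDR 0.00159) in the authors' deposited table.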
